A study of Mus musculus with 30 samples.

Results

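The genes described here are the interleukins and their receptors, taken as every gene in the files whose symbol is Il followed by a number, together with Tslp, and without antisense and pseudogene symbols. That rule gives 85 of 55487 genes, under 83 symbols, since Il11ra2 stands under 3 identifiers of near-identical copies and is uncertain. By role the 85 genes are 38 ligands, 40 receptor chains, 6 antagonists or decoys and 1 enzyme gene, Il4i1.

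The cultures were mouse lung organoids. Primary epithelial cells of wild-type C57BL/6J mice, depleted of CD31+ and CD45+ cells and selected for Epcam, were grown in Matrigel with growth-inactivated CCL206 cells. These are an established mouse lung fibroblast line, so the added fibroblasts are of a single line whatever the mouse. Cultures received vehicle, the exacerbation cocktail (EC, which holds IL-1β, IL-6, TNFα and IL-8 per the labels, where the methods give KC, its mouse counterpart, for mouse cells), the IPF cocktail (IPFc, which holds IL-4, IL-13, IL-33, TSLP, TGF-β, IL-1β, TNFα, IL-8 and CCL2) or TGF-β alone at 2 ng/ml for 72 hours. They were then split again on Epcam beads into an epithelial and a fibroblast fraction, each sequenced in bulk, from 4 mice, with 4 libraries in every group except fibroblast vehicle (mouse 2 not analysed here) and epithelial TGF-β (mouse 1 not analysed here), which have 3.

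Interleukins are secreted signals, many of which act through receptors built of a binding chain and a partner chain that is often shared. IL-33, an alarmin of barrier epithelium, binds ST2 (Il1rl1) together with the IL-1 accessory chain Il1rap. IL-4 and IL-13 share a receptor of Il4ra and Il13ra1, and Il13ra2 binds IL-13 as a decoy. IL-6 and IL-11 each use their own alpha chain with gp130 (Il6st), while TSLP pairs Il7r with Crlf2.

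The 30 libraries held 5113828 to 20317181 counted reads, the fewest in fibroblast EC mouse 1. The 2 fractions were not pure. A marker-based estimate put fibroblast RNA at 5.55 ± 2.28% of the epithelial vehicle libraries (SD, n = 4), 10.9 ± 4.08% in EC, 9.94 ± 4.27% in IPFc and 27.6 ± 2.61% in TGF-β (n = 3). Epithelial RNA made up an estimated 20.1 ± 6.94% of the fibroblast vehicle libraries (n = 3), 45.2 ± 10.8% in EC, 19.5 ± 9.19% in IPFc and 2.15 ± 1.28% in TGF-β. This share moved with the treatment, so each comparison against vehicle was repeated with it subtracted, and calls of which nothing further is said below held. The estimate takes each marker as made by its own fraction alone. In epithelial libraries TGF-β raised 15 of 15 tested fibroblast markers, beside 21% of all genes. Of 12 epithelial markers there it lowered 9, beside 20.1% of all genes, and raised 2. How far a change of markers within a cell type moved the estimate was not tested. In these bulk samples, fewer cells of a type and less RNA per cell cannot be told apart. Mast cell markers summed to at most 0.369 CPM in any library, lymphocyte markers to between 5.66 and 30.9 CPM, macrophage and neutrophil markers to between 9.39 and 21.5 CPM, and endothelial markers to between 1.05 and 10.2 CPM.

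Levels are in CPM, the usual read count scaled for sequencing depth, on library sizes scaled by TMM, and are listed in the order of mouse 1 to 4, so that the 3 fibroblast vehicle values belong to mice 1, 3 and 4 and the 3 epithelial TGF-β values to mice 2, 3 and 4. Tests are edgeR's quasi-likelihood test with the mouse as a block, with p-values adjusted by Benjamini-Hochberg over all genes, and a gene is called at an adjusted p under 0.05. Fold changes are on the log2 scale with their standard error. Levels given after subtraction keep the library sizes from before it. Tests after subtraction use the library sizes of the reduced counts, so those levels and fold changes differ in scale. A gene was tested where its mean count reached 1, which left 41 of the 85 genes in the epithelial and 46 in the fibroblast libraries.

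The remaining 39 genes had 0 to 19 reads each over all 30 libraries, and 9 of them had none. Among them were genes for cytokines that the IPFc supplies as protein: Il1b had 4 reads in all, Il4 had 3 and Il13 had 1. Il7r, the TSLP receptor chain, had 3 reads, and Il1r2, the IL-1 decoy receptor, had 17. By library, Il7r stood at 0.0488 CPM in epithelial TGF-β mouse 2, 0.0631 CPM in fibroblast vehicle mouse 4 and 0.0719 CPM in fibroblast IPFc mouse 2, and at 0 in the other libraries. In epithelial libraries Il1r2 was at 0, 0.0809, 0.103 and 0 CPM in vehicle, 0, 0.0738, 0.0598 and 0 in EC, 0.0808, 0.0592, 0.0685 and 0 in IPFc and 0.0488, 0 and 0 in TGF-β. Fibroblast libraries had Il1r2 at 0, 0.073 and 0.126 CPM in vehicle, 0, 0, 0 and 0 in EC, 0, 0, 0 and 0.154 in IPFc and 0, 0, 0 and 0.182 in TGF-β, none above 0.182 CPM.

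Against vehicle, 27 of the 85 genes were called in at least 1 of the 6 comparisons. In epithelial libraries EC raised 4 of 41 genes (9.76%, against 1.96% of all genes tested) and lowered 2 (4.88%, against 2.44%). IPFc raised 7 (17.1%, against 2.57%) and lowered 0, where 1.53% of all genes fell. TGF-β raised 15 (36.6%, against 21%) and lowered 9 (22%, against 20.1%). The share of interleukin genes lowered by TGF-β was thus near that of all genes.

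Fibroblast libraries had fewer calls. EC raised 3 of 46 genes (6.52%, against 4.28% of all genes) and lowered 2 (4.35%, against 2.84%). IPFc gave no call in either direction, where 0.305% of all genes rose and 0.144% fell in edgeR's test; 8 of the genes had an unadjusted p under 0.05, and DESeq2 called 4. TGF-β raised 3 (6.52%, against 6.39%) and lowered 10 (21.7%, against 12.8%). The median log2 fold change of the 46 genes under TGF-β was -0.30, beside -0.02 over all genes. With the share of the other fraction subtracted, 4, 2 and 17 genes were called for EC, IPFc and TGF-β in epithelial libraries and 0, 0 and 3 in fibroblast libraries. Single mice mattered too: epithelial IPFc calls fell to 4 and epithelial TGF-β calls to 13 without mouse 3, fibroblast EC calls fell to 3 without mouse 3 and 2 without mouse 4, or 3 without the EC library of mouse 4 alone, and fibroblast IPFc calls went from 0 to 2 without mouse 1 and to 6 without the shallow EC library of that mouse.

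**Figure D1:**
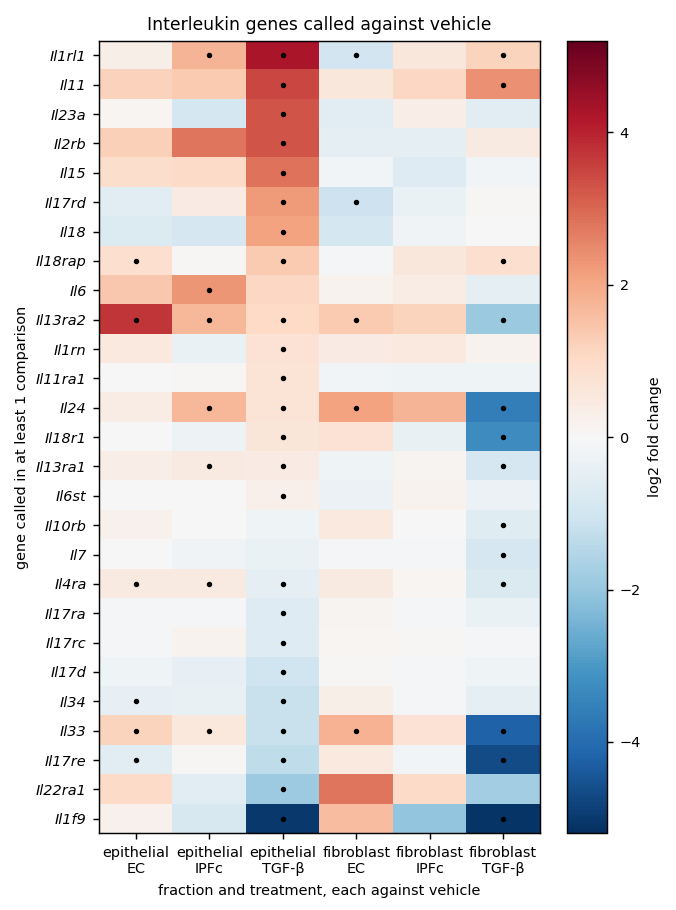
Log2 fold change against vehicle (colour) of the 27 genes called in at least 1 of the 6 comparisons (rows), by fraction and treatment (columns), with a dot where the gene was called. TGF-β has the most dots in both fractions and the fibroblast IPFc column has none.

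The vehicle cultures show how the genes divide between the fractions. Of 46 genes, 12 were higher in epithelial libraries (26.1%, near the 27.8% of all genes). In fibroblast libraries 22 were higher (47.8%, beside 28.2%). Together 34 of 46 were called, beside 56% of all genes. The fibroblast vehicle libraries held an estimated 20.1 ± 6.94% of epithelial RNA, so levels in them are partly of the other fraction. Per kilobase of exon, the highest levels in epithelial vehicle libraries were those of Il33 (26.1 ± 5.51 CPM per kb, SD, n = 4), Il4ra (24.7 ± 3.01) and Il18r1 (22.4 ± 0.787), which lie within their spread of each other. In fibroblast vehicle libraries Il13ra1 (22.5 ± 4.34 CPM per kb, n = 3), Il6st (21.8 ± 1.96) and Il4ra (16.3 ± 1.87) led, and the first 2 do not differ beyond their spread. Il33, Il18r1 and Il17re were higher in the epithelial fraction by 2.24 ± 0.23 (adjusted p = 3.93e-09), 2.39 ± 0.27 (adjusted p = 1.82e-08) and 2.20 ± 0.32 (adjusted p = 1.18e-06) on the log2 scale. ST2 stood at the other end, lower in epithelial libraries at -4.26 ± 0.23 (adjusted p = 1.04e-13), as were Il17rd at -3.35 ± 0.39 (adjusted p = 4.07e-08), Il6 at -3.60 ± 0.62 (adjusted p = 1.64e-05) and Il11 at -2.98 ± 0.49 (adjusted p = 8.27e-06). Il1r1, the signalling receptor of IL-1, was not called between the fractions, with a log2 difference of 0.01 ± 0.13 (adjusted p = 0.967).

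**Figure D2:**
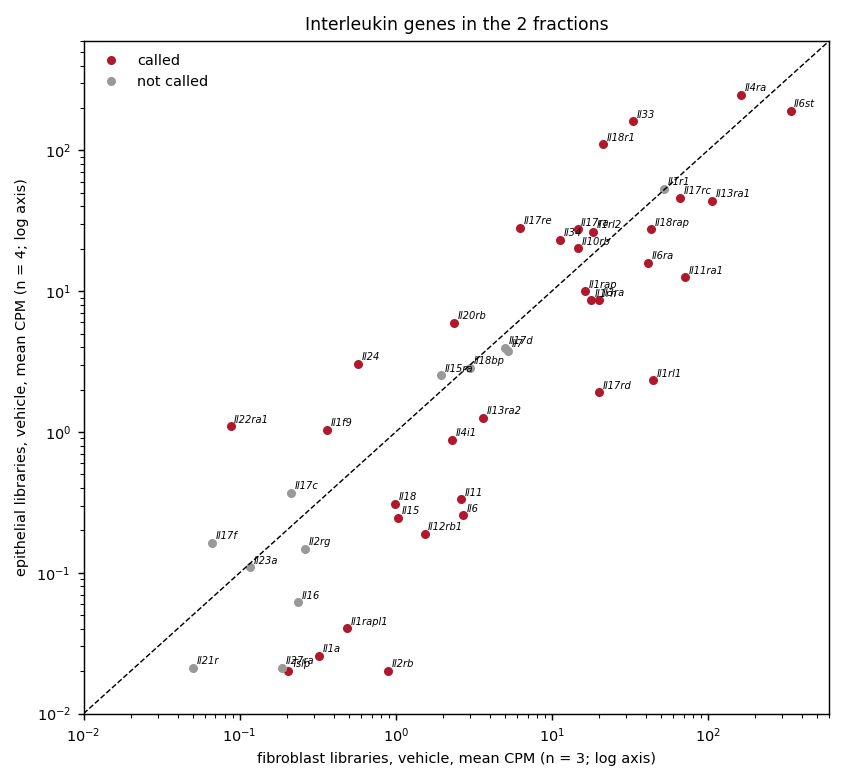
Mean CPM in vehicle libraries of the epithelial (vertical, n = 4) and fibroblast (horizontal, n = 3) fraction, both on log axes, for tested genes with a mean above 0 in both. Red marks genes called between the fractions, and the dashed line marks equal levels, with Il33 and Il18r1 far above it and Il1rl1 and Il17rd far below.

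Ligands are described first, beginning with Il33. In epithelial libraries Il33 stood at 168, 145, 126 and 206 CPM in vehicle, 354, 308, 311 and 449 in EC, 196, 180.1, 258 and 324 in IPFc and 74.3, 67.2 and 62.5 in TGF-β. Every EC value lies above every vehicle value, every TGF-β value lies below, and IPFc overlaps vehicle. EC raised it by 1.14 ± 0.13 (adjusted p = 9.93e-06), IPFc by 0.55 ± 0.13 (adjusted p = 0.0182), and TGF-β lowered it, at -1.17 ± 0.15 (adjusted p = 2.61e-06). With the fibroblast share subtracted, the EC and TGF-β values were 1.18 (adjusted p = 0.000285) and -0.79 (adjusted p = 0.00192), and that of IPFc was 0.61 (adjusted p = 0.0582), no longer called; that call was also lost without mouse 3.

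Fibroblast libraries held Il33 at 32.7, 34.2 and 32.9 CPM in vehicle, 108, 143, 105 and 169 in EC, 48.1, 77.5, 54.4 and 73.2 in IPFc and 0.861, 3.61, 1.43 and 1.88 in TGF-β. The EC and IPFc values lie above vehicle without overlap and those of TGF-β lie far below it. In the test, EC gave 1.82 ± 0.20 (adjusted p = 6.77e-05), IPFc 0.76 ± 0.19 (adjusted p = 0.143) and TGF-β -4.22 ± 0.23 (adjusted p = 1.86e-09). These levels lay on both sides of the epithelial share of each library. As a percentage of the epithelial library of the same culture, Il33 reached 20.4, 30.0 and 17.1% in vehicle, 31.0, 48.1, 35.2 and 41.5% in EC, 25.8, 45.5, 22.2 and 23.8% in IPFc and 1.22, 4.59, 1.98 and 2.77% in TGF-β. The estimated epithelial share of the same libraries was 15.9, 16.4 and 28.1% in vehicle, 39.3, 43.3, 37.4 and 61.0% in EC, 12.9, 14.4, 17.8 and 33.0% in IPFc and 1.36, 2.65, 0.882 and 3.71% in TGF-β (for TGF-β mouse 1, against the mean of the epithelial group). With that share subtracted, fibroblast EC libraries kept 0, 14.2, 0 and 0 CPM and vehicle libraries 7.3, 15.5 and 0 CPM, and the EC change turned to -3.68 (adjusted p = 0.672) while TGF-β came to -5.45 (adjusted p = 0.155). In IPFc the subtracted values were 24.1, 52.9, 10.8 and 0 CPM.

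**Figure D3:**
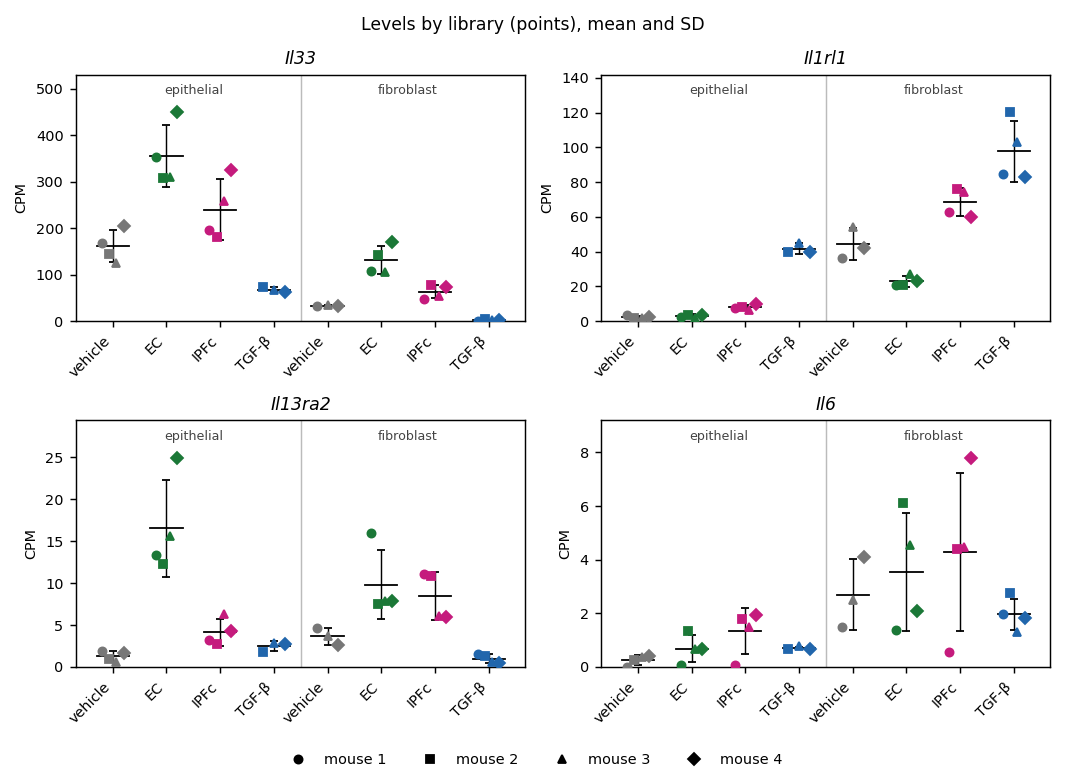
CPM of Il33, Il1rl1, Il13ra2 and Il6 in every library (points, shaped by mouse) of the 8 groups, with mean and SD. Il33 and Il13ra2 peak in epithelial EC libraries, while Il1rl1 peaks in fibroblast TGF-β libraries.

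Promoters of Il33 and of the other genes on which the account turns are printed from RefSeq (build GRCm38.p6), 250 bases before to 50 after the start, on the strand of the gene, with matches in capitals to TTCNNNGAA (a STAT-type letter pattern), TTCNNNNGAA (the wider STAT6-type spacing), TGANTCA (AP-1 type) and the NF-κB consensus, searched on both strands. They are shown because the data follow these transcripts across treatments, and a match is only a match of letters. Of 32851 promoters of this length, 8.3% hold the first pattern, 6.95% the second, 7.81% the third and 4.51% the fourth. Promoters were found for 23 of the 29 genes described in full, at 31 starts, some overlapping, of which 5, 9, 5 and 3 hold them. The same wide-spaced match was counted more than once at overlapping starts of Il18r1 and of Il1rn. A SMAD-type pattern, CAGAC, was also searched and is not in capitals. It was found in 49.6% of all promoters and at 15 of the 31 starts.
Il33, chr19:29924863-29925162, + strand: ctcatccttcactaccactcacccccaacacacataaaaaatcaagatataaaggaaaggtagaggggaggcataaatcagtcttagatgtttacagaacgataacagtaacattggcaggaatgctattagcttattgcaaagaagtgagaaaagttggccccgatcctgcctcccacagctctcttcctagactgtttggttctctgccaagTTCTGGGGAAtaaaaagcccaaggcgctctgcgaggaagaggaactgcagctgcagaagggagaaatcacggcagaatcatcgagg
Il13ra2, chrX:147429143-147429442, - strand: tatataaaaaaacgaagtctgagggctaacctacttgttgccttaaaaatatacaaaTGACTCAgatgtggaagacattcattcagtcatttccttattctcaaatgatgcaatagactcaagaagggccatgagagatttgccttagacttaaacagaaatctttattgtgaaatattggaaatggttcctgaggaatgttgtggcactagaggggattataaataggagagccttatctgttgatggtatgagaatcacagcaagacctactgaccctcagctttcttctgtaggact
Il1rl1, chr1:40439379-40439678, + strand: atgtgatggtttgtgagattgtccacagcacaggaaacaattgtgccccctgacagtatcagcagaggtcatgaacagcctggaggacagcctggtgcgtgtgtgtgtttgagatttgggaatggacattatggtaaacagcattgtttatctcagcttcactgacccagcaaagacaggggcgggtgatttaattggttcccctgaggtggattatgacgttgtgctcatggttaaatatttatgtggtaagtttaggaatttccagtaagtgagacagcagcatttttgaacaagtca
Il6, chr5:30012864-30013163, + strand: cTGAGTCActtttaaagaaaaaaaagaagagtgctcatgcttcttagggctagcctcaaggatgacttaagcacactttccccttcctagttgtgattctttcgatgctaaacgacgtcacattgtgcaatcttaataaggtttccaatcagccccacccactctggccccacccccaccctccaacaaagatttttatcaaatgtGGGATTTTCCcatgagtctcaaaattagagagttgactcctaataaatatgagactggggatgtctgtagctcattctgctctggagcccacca
Il11, chr7:4778092-4778391, - strand: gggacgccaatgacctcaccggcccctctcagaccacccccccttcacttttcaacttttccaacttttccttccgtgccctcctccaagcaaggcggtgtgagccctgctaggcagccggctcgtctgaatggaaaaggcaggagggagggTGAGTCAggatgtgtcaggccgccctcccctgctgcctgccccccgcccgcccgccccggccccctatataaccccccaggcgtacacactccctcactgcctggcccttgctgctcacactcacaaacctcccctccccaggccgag
The capitals in Il33 are a wide-spaced match 36 bases before the start, those in Il13ra2 an AP-1 type match 193 bases before, and those in Il11 an AP-1 type match 98 bases before. Il6 holds an AP-1 type match 249 and an NF-κB match 44 bases before its start. In the Il1rl1 window none of the 4 patterns was found. A second listed start of Il33 and one of Il1rl1 hold none of the 4 either, and a second start of Il11 holds a wide-spaced STAT6-type match 5 bases before it and no AP-1 type match.

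Il6, the gp130 cytokine that EC supplies as protein, was a low transcript. Epithelial libraries held 0, 0.243, 0.36 and 0.423 CPM in vehicle, 0.0709, 1.33, 0.657 and 0.679 in EC, 0.0808, 1.78, 1.51 and 1.95 in IPFc and 0.684, 0.766 and 0.675 in TGF-β. Fibroblast libraries held 1.51, 2.48 and 4.1 CPM in vehicle, 1.38, 6.12, 4.56 and 2.1 in EC, 0.564, 4.39, 4.46 and 7.79 in IPFc and 1.96, 2.74, 1.31 and 1.82 in TGF-β, higher but with a wide spread in EC and IPFc. Only IPFc in the epithelial fraction passed the test, at 2.30 ± 0.52 (adjusted p = 0.0123), with mouse 1 at the vehicle level and the other 3 above every vehicle value; it lost its call without mouse 2, 3 or 4, and stood at 2.67 (adjusted p = 0.367) with the fibroblast share subtracted. EC gave 1.39 ± 0.55 (adjusted p = 0.211) and TGF-β 1.09 ± 0.56 (adjusted p = 0.133) in the same fraction. Fibroblast values were 0.18 ± 0.51 (adjusted p = 0.876), 0.38 ± 0.49 (adjusted p = 1) and -0.51 ± 0.51 (adjusted p = 0.574) for EC, IPFc and TGF-β.

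Il24, a cytokine of the IL-10 family, separated IPFc from the other treatments. Epithelial levels were 3.21, 2.99, 3.6 and 2.37 CPM in vehicle, 3.47, 3.1, 5.86 and 3.49 in EC, 9.05, 10.6, 12.0 and 8.47 in IPFc and 4.49, 5.74 and 4.5 in TGF-β. All 4 IPFc libraries lie above every other epithelial library. The rise was 1.71 ± 0.19 (adjusted p = 7.58e-06) against vehicle, 1.33 ± 0.18 (adjusted p = 6.97e-05) against EC and 1.01 ± 0.20 (adjusted p = 0.000496) against TGF-β, and 1.78 (adjusted p = 0.000322) after subtraction of the fibroblast share. TGF-β raised it by 0.70 ± 0.22 (adjusted p = 0.0126), a call lost without mouse 2, 3 or 4, and EC gave 0.38 ± 0.20 (adjusted p = 0.412). Fibroblast libraries held 0.678, 0.73 and 0.316 CPM in vehicle, 0.987, 1.76, 3.16 and 2.98 in EC, 1.13, 0.719, 2.41 and 3.24 in IPFc and 0.0782, 0.0669, 0 and 0 in TGF-β, below the epithelial library of the same culture wherever both were sequenced. There EC gave 2.11 ± 0.56 (adjusted p = 0.0307), which became 2.44 (adjusted p = 0.824) after subtraction and lost its call without mouse 2, 3 or 4, and IPFc gave 1.75 ± 0.54 (adjusted p = 0.333). TGF-β left 2 reads in 4 libraries against 24 in the 3 vehicle libraries, 16.9-fold fewer with an exact 95% interval of 4.19 to 147.5 that covers counting error only (edgeR -3.60 ± 0.89, adjusted p = 0.00775). It was -4.37 (adjusted p = 0.407) after subtraction, and the call was lost without mouse 3.

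Il11, a gp130 cytokine, rose with TGF-β in both fractions. Fibroblast libraries held 3.01, 2.56 and 2.33 CPM in vehicle, 4.34, 2.88, 4.2 and 3.92 in EC, 3.38, 2.95, 7.41 and 7.94 in IPFc and 9.78, 12.0, 12.8 and 14.7 in TGF-β, with every TGF-β value above every other. The fibroblast rise was 2.39 ± 0.29 (adjusted p = 8.54e-06) and 2.11 (adjusted p = 0.0101) after subtraction, while EC gave 0.60 ± 0.30 (adjusted p = 0.26) and IPFc 1.08 ± 0.29 (adjusted p = 0.181), the latter from 2 mice near 3 CPM and 2 above 7 CPM. Epithelial levels were 0.273, 0.647, 0.154 and 0.254 CPM in vehicle, 0.142, 0.664, 0.837 and 1.45 in EC, 1.21, 0.8292, 0.685 and 0.57 in IPFc and 3.37, 4.82 and 2.93 in TGF-β. TGF-β gave 3.48 ± 0.58 (adjusted p = 5.24e-05) there, and 2.12 (adjusted p = 0.33) with the fibroblast share subtracted, no longer called. EC and IPFc gave 1.20 ± 0.60 (adjusted p = 0.385) and 1.36 ± 0.59 (adjusted p = 0.296) in that fraction.

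Of the IL-1 family, Il1f9 (an older symbol of Il36g, which encodes IL-36γ) was nearly lost under TGF-β. Epithelial levels were 1.03, 1.54, 1.08 and 0.508 CPM in vehicle, 1.7, 1.4, 0.896 and 0.873 in EC, 0.647, 0.592, 0.48 and 0.57 in IPFc and 0.0488, 0 and 0 in TGF-β. That is 1 read in 3 TGF-β libraries against 61 in 4 vehicle libraries, 44.4-fold fewer with an exact 95% interval of 7.68 to 1783 that covers counting error only (edgeR -5.03 ± 0.84, adjusted p = 5.39e-05). EC gave 0.23 ± 0.43 (adjusted p = 0.885) and IPFc -0.84 ± 0.46 (adjusted p = 0.476). In fibroblast libraries it stood at 0.904, 0 and 0.189 CPM in vehicle, 0.395, 1.2, 0.669 and 0.663 in EC, 0.212, 0, 0.0602 and 0 in IPFc and 0, 0, 0 and 0 in TGF-β, and 0 reads in TGF-β against 15 in vehicle make it at least 7.04-fold lower at a floor of 3 counts over the group, with an exact 95% lower limit of 5.05-fold for counting error alone (edgeR adjusted p = 0.0432); 12 of those 15 reads came from mouse 1, and the call was lost when any 1 of the 4 mice was left out and after subtraction. EC gave 1.59 ± 1.00 (adjusted p = 0.382) and IPFc -2.06 ± 1.17 (adjusted p = 0.907).

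Il18, another member of that family, was called only under TGF-β in epithelial libraries. Its levels there were 0.205, 0.0809, 0.36 and 0.592 CPM in vehicle, 0, 0.0738, 0.179 and 0.582 in EC, 0.162, 0.237, 0.137 and 0.0814 in IPFc and 1.81, 1.45 and 0.9 in TGF-β, with the 3 TGF-β values above the rest. The rise was 2.09 ± 0.74 (adjusted p = 0.0278), and 2.70 (adjusted p = 0.101) after subtraction; the call was lost then and without mouse 2 or 3. EC and IPFc gave -0.72 ± 0.79 (adjusted p = 0.761) and -0.88 ± 0.81 (adjusted p = 0.774). In fibroblast libraries Il18 stood at 1.13, 1.02 and 0.82 CPM in vehicle, 0.197, 0.774, 0.304 and 0.608 in EC, 0.705, 0.576, 1.32 and 0.771 in IPFc and 1.25, 0.669, 0.747 and 0.97 in TGF-β, and none of -0.91 ± 0.54 (adjusted p = 0.339), -0.19 ± 0.49 (adjusted p = 1) and -0.03 ± 0.49 (adjusted p = 0.977) for EC, IPFc and TGF-β passed the test, although the EC values lie below vehicle without overlap.

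Il15, which acts through Il2rb and the common gamma chain, was likewise called only under TGF-β in epithelial libraries. Epithelial levels were 0.0684, 0.485, 0.257 and 0.169 CPM in vehicle, 0.638, 0.148, 0.359 and 0.873 in EC, 0.566, 0.533, 0.411 and 0.488 in IPFc and 1.42, 1.53 and 2.59 in TGF-β, and TGF-β raised it by 2.84 ± 0.62 (adjusted p = 0.000933) without overlap, or 3.42 (adjusted p = 0.00808) after subtraction. EC and IPFc gave 0.93 ± 0.65 (adjusted p = 0.577) and 0.98 ± 0.64 (adjusted p = 0.594). The fibroblast levels were 1.13, 1.1 and 0.883 CPM in vehicle, 1.18, 0.633, 0.608 and 1.22 in EC, 1.48, 0.504, 0.422 and 0.385 in IPFc and 1.17, 1.2, 1.06 and 0.243 in TGF-β. Changes in this fraction were -0.13 ± 0.55 (adjusted p = 0.919) for EC, -0.66 ± 0.55 (adjusted p = 1) for IPFc and -0.13 ± 0.55 (adjusted p = 0.911) for TGF-β.

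Il23a, a subunit of IL-23, stayed under 1 CPM in every library. Epithelial libraries held 0.137, 0.0809, 0.0514 and 0.169 CPM in vehicle, 0.567, 0, 0.0598 and 0 in EC, 0.0808, 0.0592, 0.0685 and 0 in IPFc and 0.83, 0.689 and 0.563 in TGF-β, and TGF-β gave 3.29 ± 0.92 (adjusted p = 0.00681), which lost its call without mouse 3 (3.21, adjusted p = 0.0527). EC gave 0.12 ± 1.15 (adjusted p = 0.983) and IPFc -0.92 ± 1.12 (adjusted p = 0.846), with EC mouse 1 apart from the others. Fibroblast libraries held 0.151, 0.073 and 0.126 CPM in vehicle, 0, 0.141, 0.0608 and 0.0552 in EC, 0.353, 0.144, 0.0602 and 0.0771 in IPFc and 0, 0.0669, 0 and 0.243 in TGF-β. There the 3 treatments gave -0.61 ± 1.17 (adjusted p = 0.809), 0.34 ± 1.04 (adjusted p = 1) and -0.53 ± 1.10 (adjusted p = 0.813) in the order EC, IPFc and TGF-β.

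Among the ligands that fell was Il34, which binds the CSF1 receptor. Epithelial libraries held 19.2, 24.8, 28.2 and 20.6 CPM in vehicle, 14.3, 17.6, 19.4 and 17.6 in EC, 15.4, 19.8, 18.8 and 17.1 in IPFc and 10.6, 12.6 and 8.67 in TGF-β. All TGF-β values lie below all vehicle values, and the fall was -1.15 ± 0.13 (adjusted p = 4.27e-07), or -1.03 (adjusted p = 0.000127) after subtraction. EC lowered it, at -0.43 ± 0.11 (adjusted p = 0.0316) and IPFc gave -0.39 ± 0.11 (adjusted p = 0.0562); the EC call was lost after subtraction at -0.44 (adjusted p = 0.112) and without mouse 1, 2 or 3. Fibroblast libraries held 8.13, 12.7 and 12.9 CPM in vehicle, 10.5, 16.1, 13.9 and 14.1 in EC, 7.9, 9.14, 13.4 and 11.8 in IPFc and 7.43, 7.16, 7.47 and 8.07 in TGF-β, with 0.29 ± 0.18 (adjusted p = 0.366) for EC, -0.09 ± 0.18 (adjusted p = 1) for IPFc and -0.49 ± 0.18 (adjusted p = 0.0677) for TGF-β.

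Il17d, a member of the IL-17 family, stood at 4.03, 4.21, 4.42 and 3.22 CPM in vehicle, 3.12, 3.84, 4.24 and 2.23 in EC, 2.75, 4.21, 2.12 and 3.01 in IPFc and 2.78, 1.22 and 1.8 in TGF-β in epithelial libraries. TGF-β lowered it, at -1.04 ± 0.31 (adjusted p = 0.0104), with all 3 values below vehicle, although the call was lost without mouse 3 at -0.72 (adjusted p = 0.115). EC and IPFc gave -0.24 ± 0.26 (adjusted p = 0.76) and -0.43 ± 0.26 (adjusted p = 0.556). The fibroblast fraction had 3.92, 3.43 and 7.76 CPM in vehicle, 3.16, 6.33, 4.26 and 5.91 in EC, 3.67, 3.02, 6.02 and 5.24 in IPFc and 1.72, 2.48, 5.04 and 7.34 in TGF-β. Values there overlap throughout, at 0.07 ± 0.34 (adjusted p = 0.932), -0.07 ± 0.33 (adjusted p = 1) and -0.21 ± 0.33 (adjusted p = 0.745) for EC, IPFc and TGF-β.

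Tslp, which IPFc supplies as protein, had 69 reads in all and was tested only in fibroblasts. Those libraries held 0.226, 0.073 and 0.316 CPM in vehicle, 0.79, 0.492, 0.486 and 0.442 in EC, 0.0705, 0.36, 0.181 and 0.154 in IPFc and 0.0782, 0.268, 0.56 and 0.243 in TGF-β, and EC, IPFc and TGF-β gave 1.18 ± 0.79 (adjusted p = 0.403), -0.27 ± 0.84 (adjusted p = 1) and 0.39 ± 0.80 (adjusted p = 0.81). The 4 EC values are the highest but for TGF-β mouse 3. In the epithelial fraction it stood at 0, 0.0809, 0 and 0 CPM in vehicle, 0.0709, 0, 0 and 0 in EC, 0, 0.0592, 0 and 0 in IPFc and 0.0488, 0 and 0 in TGF-β, so a change was not detectable at this depth.

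**Figure D4:**
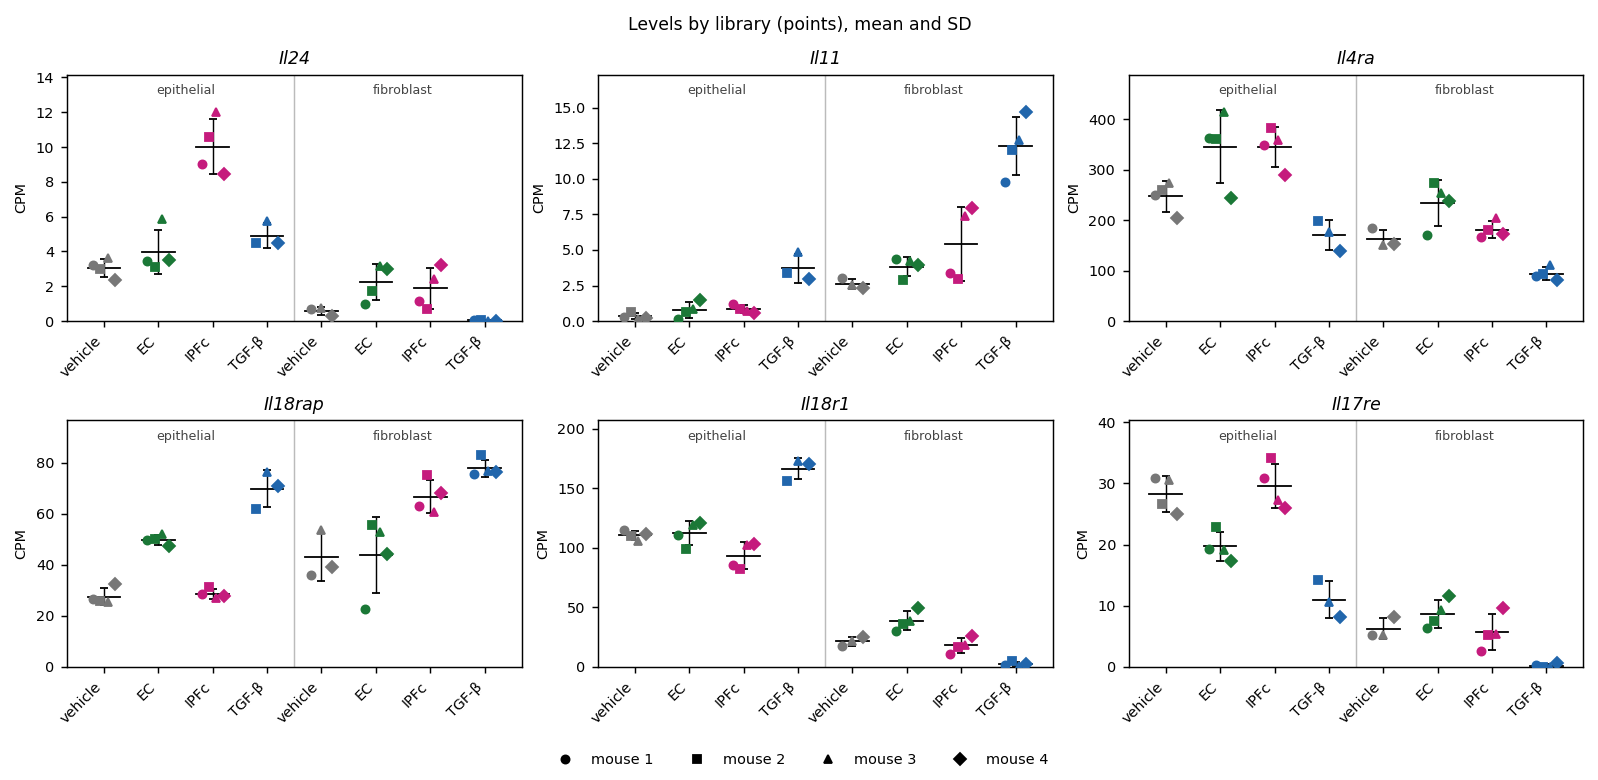
CPM of Il24, Il11, Il4ra, Il18rap, Il18r1 and Il17re in every library (points, shaped by mouse) of the 8 groups, with mean and SD. Il24 is highest in epithelial IPFc libraries, Il11 in fibroblast TGF-β libraries, and Il18r1 and Il17re are near 0 in fibroblast TGF-β libraries.

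Among receptors, ST2 (Il1rl1) was lower with EC and higher with TGF-β in fibroblast libraries. In fibroblast libraries Il1rl1 stood at 36.3, 54.3 and 42.3 CPM in vehicle, 20.5, 21.0, 27.1 and 22.8 in EC, 63.0, 76.3, 74.1 and 60.0 in IPFc and 84.5, 120.2, 103 and 83.1 in TGF-β. EC values lie below vehicle and those of IPFc and TGF-β above it, without overlap. EC lowered it, at -0.99 ± 0.14 (adjusted p = 0.000548) and TGF-β raised it by 1.16 ± 0.14 (adjusted p = 8.32e-06), while IPFc gave 0.59 ± 0.14 (adjusted p = 0.0965) against vehicle and 1.57 ± 0.13 (adjusted p = 2.25e-06) against EC. After subtraction the TGF-β value was 0.87 (adjusted p = 0.0217) and the EC value -0.57 (adjusted p = 0.36), no longer called. On the library sizes from before subtraction, the EC libraries then kept 19.5, 19.5, 26.5 and 20.8 CPM and the vehicle libraries 35.8, 54.0 and 41.65 CPM. The subtracted fold change uses the smaller library sizes after it, so these levels do not give it directly. The estimated epithelial share of the EC libraries was 37.4 to 61.0%, and beyond this subtraction its part in the lower ST2 level was not tested.

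Epithelial libraries held Il1rl1 at 3.42, 1.86, 1.75 and 2.28 CPM in vehicle, 2.62, 3.69, 1.67 and 3.69 in EC, 7.76, 8.29, 6.58 and 9.69 in IPFc and 39.8, 45.2 and 39.7 in TGF-β. IPFc and TGF-β values lie above vehicle without overlap, by 1.78 ± 0.21 (adjusted p = 2.41e-05) and 4.26 ± 0.22 (adjusted p = 7.48e-12), and EC gave 0.30 ± 0.24 (adjusted p = 0.654). As a percentage of the fibroblast library of the same culture, Il1rl1 reached 8.99, 3.99, 2.91 and 5.07% in vehicle, 12.6, 16.9, 5.91 and 14.7% in EC, 11.7, 10.3, 8.45 and 15.3% in IPFc and 35.1, 47.1 and 51.9% in TGF-β. The estimated fibroblast share of these libraries was 8.82, 5.0, 3.55 and 4.82% in vehicle, 15.1, 11.7, 5.29 and 11.3% in EC, 12.9, 13.6, 4.32 and 8.93% in IPFc and 26.3, 25.8 and 30.6% in TGF-β. After subtraction the libraries kept 0.0684, 0, 0 and 0.0846 CPM in vehicle, 0, 0, 3.22 and 4.07 in IPFc and 9.96, 20.4 and 16.3 in TGF-β, so that TGF-β stayed called and IPFc, with 2 libraries at 0, did not, at 5.12 (adjusted p = 0.131).

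**Figure D5:**
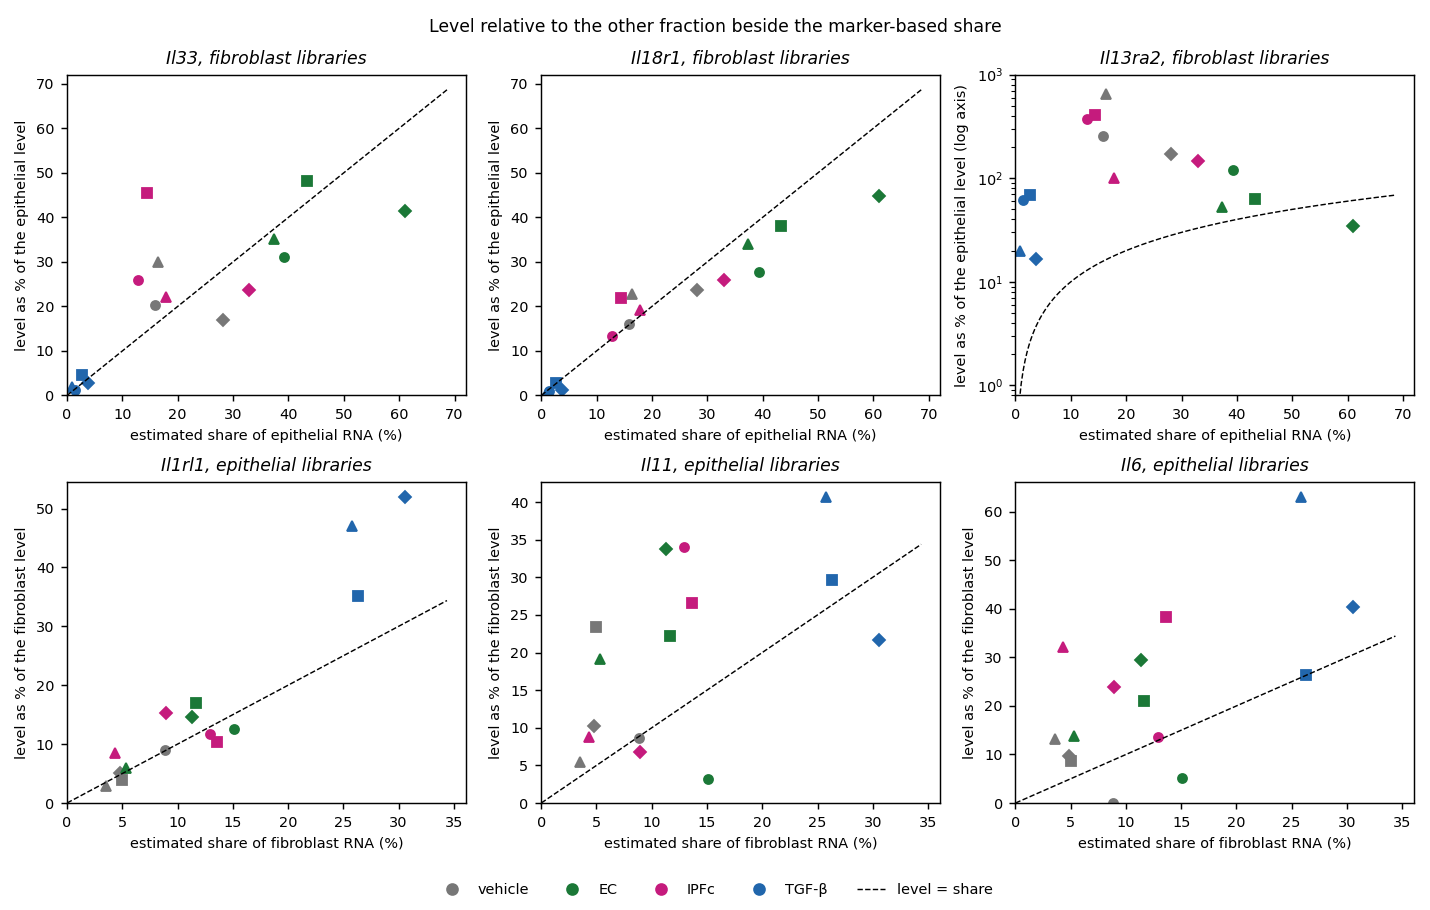
Level of a gene as a percentage of the level in the other fraction of the same culture (vertical) beside the marker-based share of RNA from that fraction (horizontal), 1 point per library, coloured by treatment; the dashed line marks equality and the Il13ra2 panel has a log axis. Il33 and Il18r1 in fibroblast libraries lie on both sides of the line, Il13ra2 in fibroblast libraries lies above it in all but EC mouse 4, and Il1rl1 in epithelial TGF-β libraries lies above it.

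Il1rap, the partner chain of ST2 and of the IL-1 receptor, was not called against vehicle. Epithelial libraries held 7.79, 10.4, 8.94 and 12.6 CPM in vehicle, 9.64, 10.5, 8.66 and 10.4 in EC, 11.6, 12.9, 15.7 and 15.1 in IPFc and 9.04, 8.5 and 5.29 in TGF-β, with -0.0036 ± 0.17 (adjusted p = 0.998) for EC, 0.47 ± 0.17 (adjusted p = 0.158) for IPFc and -0.36 ± 0.19 (adjusted p = 0.146) for TGF-β. Fibroblast levels were 12.0, 21.2 and 15.6 CPM in vehicle, 10.1, 24.5, 21.8 and 19.2 in EC, 27.4, 30.0, 28.7 and 25.4 in IPFc and 12.3, 16.4, 14.1 and 10.9 in TGF-β. The changes were 0.14 ± 0.19 (adjusted p = 0.723), 0.72 ± 0.19 (adjusted p = 0.148) and -0.29 ± 0.19 (adjusted p = 0.349), with every IPFc value above every vehicle value, and IPFc exceeded EC by 0.58 ± 0.17 (adjusted p = 0.0353).

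Il1r1, which binds the IL-1β of both cocktails, was not called against vehicle in either fraction. In epithelial libraries it stood at 52.4, 50.5, 48.0 and 61.7 CPM in vehicle, 53.8, 51.6, 58.5 and 51.6 in EC, 51.7, 44.2, 50.4 and 52.8 in IPFc and 43.9, 48.2 and 46.6 in TGF-β, and in fibroblast libraries at 48.1, 56.7 and 52.9 CPM in vehicle, 38.7, 53.9, 46.5 and 46.8 in EC, 60.5, 63.3, 50.8 and 53.1 in IPFc and 56.8, 65.1, 48.0 and 51.4 in TGF-β. Epithelial changes were 0.03 ± 0.10 (adjusted p = 0.945), -0.11 ± 0.10 (adjusted p = 0.758) and -0.15 ± 0.11 (adjusted p = 0.286) for EC, IPFc and TGF-β. Those of the fibroblast fraction were -0.25 ± 0.13 (adjusted p = 0.275), 0.04 ± 0.13 (adjusted p = 1) and 0.06 ± 0.13 (adjusted p = 0.812).

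Il18rap, the accessory chain of the IL-18 receptor, stood at 26.7, 25.7, 25.2 and 32.6 CPM in vehicle, 49.8, 50.0, 52.0 and 47.4 in EC, 28.5, 31.3, 26.9 and 27.9 in IPFc and 62.0, 76.4 and 70.9 in TGF-β in epithelial libraries. EC and TGF-β values lie above vehicle without overlap, at 0.86 ± 0.11 (adjusted p = 2.08e-05) and 1.38 ± 0.12 (adjusted p = 6.41e-09), or 0.93 (adjusted p = 0.000553) and 1.39 (adjusted p = 4.25e-06) after subtraction, while IPFc gave 0.05 ± 0.11 (adjusted p = 0.932). Fibroblast libraries held 36.1, 53.7 and 39.1 CPM in vehicle, 22.7, 55.4, 52.7 and 44.2 in EC, 62.8, 75.2, 60.5 and 68.3 in IPFc and 75.7, 82.8, 76.7 and 76.4 in TGF-β. TGF-β raised it there by 0.88 ± 0.18 (adjusted p = 0.00219), which was 0.72 (adjusted p = 0.641) after subtraction and lost its call without mouse 4, and EC and IPFc gave -0.06 ± 0.18 (adjusted p = 0.892) and 0.58 ± 0.18 (adjusted p = 0.353).

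Il18r1, the binding chain, was mainly epithelial at 115, 109.7, 106 and 112 CPM in vehicle, 111, 98.7, 119 and 121 in EC, 85.7, 82.0, 103 and 104 in IPFc and 156, 173 and 170.0 in TGF-β. TGF-β raised it by 0.62 ± 0.09 (adjusted p = 1.83e-05) without overlap, or 1.01 (adjusted p = 1.45e-06) after subtraction, and EC and IPFc gave 0.02 ± 0.09 (adjusted p = 0.955) and -0.26 ± 0.09 (adjusted p = 0.105). In fibroblast libraries it stood at 17.5, 21.8 and 24.8 CPM in vehicle, 30.2, 36.3, 38.9 and 49.3 in EC, 10.9, 16.9, 18.7 and 25.6 in IPFc and 1.64, 4.75, 0.622 and 2.37 in TGF-β. TGF-β gave -3.27 ± 0.34 (adjusted p = 1.57e-06), EC 0.76 ± 0.29 (adjusted p = 0.132) and IPFc -0.37 ± 0.29 (adjusted p = 1). With the epithelial share subtracted, the fibroblast vehicle libraries kept 0.0753, 6.13 and 0 CPM and the TGF-β value was -5.77 (adjusted p = 0.151).

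Il4ra, the shared chain for the IL-4 and IL-13 of IPFc, rose in epithelial cells with both cocktails. Its levels were 250.2, 259, 274 and 204 CPM in vehicle, 362, 362, 414 and 244 in EC, 349, 382, 358 and 289 in IPFc and 198, 177 and 138 in TGF-β. IPFc values lie above all vehicle values, and EC mouse 4 overlaps vehicle but exceeds its own vehicle library. EC raised it by 0.47 ± 0.09 (adjusted p = 0.0016) and IPFc by 0.47 ± 0.09 (adjusted p = 0.00244), with -0.01 ± 0.09 (adjusted p = 0.99) between them, and TGF-β lowered it, at -0.48 ± 0.10 (adjusted p = 0.000463), which became -0.27 (adjusted p = 0.075) after subtraction. Fibroblast libraries held 184, 150.4 and 153 CPM in vehicle, 170.4, 274, 254 and 237 in EC, 167, 179.8, 205 and 173 in IPFc and 90.0, 93.5, 111 and 82.2 in TGF-β. TGF-β lowered it, at -0.76 ± 0.14 (adjusted p = 0.000883), or -0.71 (adjusted p = 0.493) after subtraction, and EC and IPFc gave 0.48 ± 0.15 (adjusted p = 0.0569) and 0.12 ± 0.14 (adjusted p = 1).

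Il13ra1, the signalling partner of Il4ra, stood at 36.5, 44.3, 40.3 and 54.0 CPM in vehicle, 49.1, 55.0, 46.3 and 71.0 in EC, 51.8, 51.4, 62.6 and 78.9 in IPFc and 56.9, 61.5 and 58.6 in TGF-β in epithelial libraries. IPFc raised it by 0.47 ± 0.10 (adjusted p = 0.0115) and TGF-β by 0.43 ± 0.12 (adjusted p = 0.00475), and EC gave 0.34 ± 0.11 (adjusted p = 0.0787); the IPFc call was lost after subtraction at 0.34 (adjusted p = 0.589) and without mouse 1 or 3, and the TGF-β call without mouse 2 or 3. Fibroblast libraries held 114, 121 and 82.9 CPM in vehicle, 115, 110.1, 88.2 and 78.4 in EC, 169, 149, 96.9 and 100.1 in IPFc and 70.0, 74.9, 43.8 and 49.4 in TGF-β. TGF-β values lie below vehicle without overlap, at -0.89 ± 0.15 (adjusted p = 0.000361) or -1.12 (adjusted p = 0.00547) after subtraction. The EC and IPFc values were -0.22 ± 0.15 (adjusted p = 0.415) and 0.15 ± 0.15 (adjusted p = 1), with 2 IPFc libraries above and 2 within the vehicle range.

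Of the IL-6 receptor chains, Il6ra was not called against vehicle. It stood at 12.2, 14.3, 17.8 and 19.3 CPM in vehicle, 14.1, 17.4, 15.0 and 11.2 in EC, 14.8, 16.3, 10.9 and 15.1 in IPFc and 18.4, 19.98 and 21.9 in TGF-β in epithelial libraries, with -0.13 ± 0.17 (adjusted p = 0.813), -0.17 ± 0.17 (adjusted p = 0.788) and 0.34 ± 0.18 (adjusted p = 0.134) for EC, IPFc and TGF-β. In fibroblasts it was 31.5, 44.3 and 48.8 CPM in vehicle, 21.3, 32.6, 45.1 and 38.3 in EC, 39.0, 42.0, 50.5 and 46.5 in IPFc and 25.0, 32.1, 35.0 and 32.6 in TGF-β, with -0.28 ± 0.14 (adjusted p = 0.254), 0.12 ± 0.14 (adjusted p = 1) and -0.33 ± 0.14 (adjusted p = 0.114).

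Il6st (gp130) held 205, 175, 190.2 and 190.2 CPM in vehicle, 220.4, 206, 194 and 151 in EC, 192, 193, 172 and 197 in IPFc and 217, 210.3 and 227 in TGF-β in epithelial libraries. TGF-β gave 0.28 ± 0.11 (adjusted p = 0.0383), a call that was lost when any 1 of the 4 mice was left out and after subtraction, and EC and IPFc gave 0.02 ± 0.10 (adjusted p = 0.966) and -0.02 ± 0.10 (adjusted p = 0.968). Fibroblast libraries held 306, 366 and 342 CPM in vehicle, 193, 366, 332 and 268 in EC, 481, 415, 394 and 317 in IPFc and 285, 289, 267 and 236 in TGF-β. Changes there were -0.30 ± 0.17 (adjusted p = 0.322), 0.19 ± 0.17 (adjusted p = 1) and -0.32 ± 0.17 (adjusted p = 0.226), none called.

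Among IL-17 receptor chains, Il17re, which with Il17ra binds IL-17C, fell with EC and TGF-β in the epithelium. Its levels were 30.9, 26.7, 30.5 and 25.0 CPM in vehicle, 19.4, 22.9, 19.1 and 17.4 in EC, 30.9, 34.1, 27.3 and 26.0 in IPFc and 14.2, 10.6 and 8.21 in TGF-β. Both treatments lie below vehicle without overlap, at -0.53 ± 0.12 (adjusted p = 0.00847) and -1.31 ± 0.14 (adjusted p = 1.46e-07), and IPFc gave 0.04 ± 0.11 (adjusted p = 0.949); after subtraction the EC value was -0.51 (adjusted p = 0.0576) and the TGF-β value -0.94 (adjusted p = 0.000298), and the EC call was lost without mouse 1 or 3. Fibroblast libraries held 5.27, 5.19 and 8.2 CPM in vehicle, 6.32, 7.46, 9.24 and 11.5 in EC, 2.54, 5.18, 5.42 and 9.64 in IPFc and 0.235, 0.0669, 0 and 0.607 in TGF-β. The TGF-β fall was -4.67 ± 0.45 (adjusted p = 6.05e-07), or -3.64 (adjusted p = 0.235) after subtraction, and EC and IPFc gave 0.52 ± 0.32 (adjusted p = 0.355) and -0.15 ± 0.32 (adjusted p = 1).

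Il17rd, known as an inhibitor of FGF signalling, was mainly a fibroblast transcript at 12.6, 23.5 and 24.2 CPM in vehicle, 2.17, 10.4, 12.8 and 11.5 in EC, 14.5, 14.03, 15.0 and 16.7 in IPFc and 19.8, 17.0, 19.98 and 18.9 in TGF-β. EC values overlap vehicle by mouse 3 and the change was -1.07 ± 0.28 (adjusted p = 0.0295), lost without mouse 2, 3 or 4 and after subtraction (-0.72, adjusted p = 0.746). IPFc and TGF-β gave -0.36 ± 0.27 (adjusted p = 1) and 0.04 ± 0.27 (adjusted p = 0.943). Epithelial libraries held 2.8, 1.7, 1.54 and 1.61 CPM in vehicle, 1.13, 2.51, 0.657 and 0.679 in EC, 4.04, 2.31, 1.78 and 2.52 in IPFc and 5.27, 9.49 and 7.99 in TGF-β. TGF-β raised it by 2.22 ± 0.37 (adjusted p = 5.24e-05) without overlap, or 2.77 (adjusted p = 0.0487) after subtraction, and EC and IPFc gave -0.60 ± 0.38 (adjusted p = 0.53) and 0.45 ± 0.35 (adjusted p = 0.709).

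Il22ra1, the IL-22 receptor chain that also serves IL-24, stood at 1.16, 1.13, 1.08 and 1.02 CPM in vehicle, 1.49, 1.7, 4.6 and 1.26 in EC, 0.727, 0.8292, 0.548 and 0.814 in IPFc and 0.537, 0.153 and 0.113 in TGF-β in epithelial libraries. TGF-β values lie below vehicle, at -1.87 ± 0.61 (adjusted p = 0.0176), a call lost without mouse 3 or 4 and after subtraction (-1.60, adjusted p = 0.0867). EC values lie above vehicle, mouse 3 apart, at 0.99 ± 0.44 (adjusted p = 0.303), and IPFc values below it, at -0.59 ± 0.48 (adjusted p = 0.721). Fibroblast libraries held 0, 0.073 and 0.189 CPM in vehicle, 0.197, 0.352, 1.03 and 0.608 in EC, 0.0705, 0.144, 0.0602 and 0.385 in IPFc and 0, 0, 0 and 0.0607 in TGF-β, with 2.78 ± 0.91 (adjusted p = 0.0762), 0.99 ± 0.96 (adjusted p = 1) and -1.80 ± 1.21 (adjusted p = 0.361) for EC, IPFc and TGF-β.

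Chains shared by the IL-2 group were rare. Il2rb held 0, 0.0809, 0 and 0 CPM in vehicle, 0, 0.0738, 0 and 0.194 in EC, 0.162, 0.296, 0 and 0.326 in IPFc and 0.391, 0.23 and 0.113 in TGF-β in epithelial libraries, where TGF-β had 12 reads in 3 libraries against 1 in 4 vehicle libraries, 16.5-fold more with an exact 95% interval of 2.44 to 704.4 that covers counting error only (edgeR 3.25 ± 1.27, adjusted p = 0.0462); the call was lost when any 1 of the 4 mice was left out and after subtraction. The EC and IPFc values were 1.24 ± 1.39 (adjusted p = 0.768) and 2.79 ± 1.23 (adjusted p = 0.303). Fibroblast libraries held 0.904, 1.02 and 0.757 CPM in vehicle, 0.197, 1.41, 0.851 and 0.276 in EC, 0.564, 0.504, 1.14 and 0.463 in IPFc and 1.17, 1.14, 0.809 and 1.82 in TGF-β, with -0.49 ± 0.60 (adjusted p = 0.681), -0.51 ± 0.57 (adjusted p = 1) and 0.49 ± 0.55 (adjusted p = 0.628).

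Il2rg, the common gamma chain, stood at 0.273, 0.0809, 0.154 and 0.0846 CPM in vehicle, 0, 0, 0.119 and 0.097 in EC, 0.0808, 0.118, 0.274 and 0 in IPFc and 0.391, 0.612 and 0.788 in TGF-β in epithelial libraries. The 3 TGF-β values exceed all vehicle values, yet the change was 2.04 ± 0.93 (adjusted p = 0.086), and EC and IPFc gave -1.38 ± 1.05 (adjusted p = 0.628) and -0.29 ± 0.94 (adjusted p = 0.957). Fibroblast libraries held 0.602, 0 and 0.189 CPM in vehicle, 0, 0.141, 0.304 and 0.0552 in EC, 0.282, 0.144, 0 and 0.231 in IPFc and 0.156, 0.134, 0.124 and 0.364 in TGF-β. None of -0.31 ± 1.17 (adjusted p = 0.911), -0.48 ± 1.06 (adjusted p = 1) and -0.03 ± 1.37 (adjusted p = 0.994) passed the test.

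Il13ra2, the IL-13 decoy, had the largest called rise under EC in epithelial libraries among these genes. Epithelial libraries held 1.91, 0.89, 0.617 and 1.61 CPM in vehicle, 13.4, 12.2, 15.6 and 24.9 in EC, 3.15, 2.78, 6.37 and 4.23 in IPFc and 1.76, 2.91 and 2.7 in TGF-β. Every EC and every IPFc value lies above every vehicle value, and TGF-β overlaps vehicle by mouse 2. EC raised it by 3.72 ± 0.29 (adjusted p = 2.76e-08), IPFc by 1.73 ± 0.31 (adjusted p = 0.00173) and TGF-β by 1.02 ± 0.36 (adjusted p = 0.0261), and IPFc stayed below EC, at -1.99 ± 0.25 (adjusted p = 1.86e-05). The EC value was 3.94 (adjusted p = 0.000122) after subtraction and kept its call without each mouse in turn, the IPFc value was 1.56 (adjusted p = 0.142), no longer called, and the TGF-β call was lost without mouse 2, 3 or 4.

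Fibroblast libraries held Il13ra2 at 4.67, 3.65 and 2.59 CPM in vehicle, 16.0, 7.46, 7.84 and 7.9 in EC, 11.1, 10.8, 6.08 and 5.94 in IPFc and 1.56, 1.27, 0.622 and 0.485 in TGF-β. EC and IPFc lie above vehicle and TGF-β below it, without overlap. EC gave 1.35 ± 0.26 (adjusted p = 0.00448), IPFc 1.15 ± 0.26 (adjusted p = 0.0785) and TGF-β -1.91 ± 0.30 (adjusted p = 0.000149). As a percentage of the epithelial library of the same culture, it reached 121, 63.0, 52.5 and 34.9% in EC and 255, 655 and 172% in vehicle. Subtraction left 10.9, 2.32, 2.25 and 0 CPM in EC against 4.37, 3.58 and 2.15 CPM in vehicle, on the library sizes from before it. In the test after subtraction EC gave -0.23 (adjusted p = 0.971) and TGF-β -2.43 (adjusted p = 0.196). The EC call was also lost without mouse 4.

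Il1rn, the IL-1 receptor antagonist, stood at 10.6, 8.5, 7.2 and 8.04 CPM in vehicle, 15.0, 12.8, 9.98 and 11.5 in EC, 9.62, 7.05, 4.73 and 6.27 in IPFc and 8.89, 15.6 and 14.5 in TGF-β in epithelial libraries. TGF-β raised it by 0.77 ± 0.20 (adjusted p = 0.00361), although mouse 2 lies within the vehicle range, and the call was lost without mouse 3 and after subtraction (0.56, adjusted p = 0.176). The EC and IPFc values were 0.53 ± 0.18 (adjusted p = 0.122) and -0.34 ± 0.19 (adjusted p = 0.482), with -0.86 ± 0.18 (adjusted p = 0.00621) between IPFc and EC. Fibroblast levels were 20.7, 19.4 and 13.5 CPM in vehicle, 36.5, 25.5, 19.6 and 18.4 in EC, 27.0, 26.5, 22.1 and 25.8 in IPFc and 18.9, 20.1, 18.4 and 19.7 in TGF-β, with 0.43 ± 0.19 (adjusted p = 0.186), 0.49 ± 0.18 (adjusted p = 0.542) and 0.18 ± 0.18 (adjusted p = 0.597) for EC, IPFc and TGF-β.

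The remaining calls against vehicle were small. In epithelial TGF-β libraries Il17rc and Il17ra, both IL-17 receptor chains, fell, at -0.68 ± 0.12 (adjusted p = 9.33e-05) and -0.67 ± 0.12 (adjusted p = 0.000153), and Il11ra1, the IL-11 receptor, rose by 0.70 ± 0.20 (adjusted p = 0.00759). In fibroblast TGF-β libraries Il10rb, a shared IL-10 receptor chain, and Il7, the ligand of Il7r, fell, at -0.63 ± 0.16 (adjusted p = 0.0105) and -0.86 ± 0.26 (adjusted p = 0.0284). The calls of Il11ra1, Il10rb and Il7 were lost after subtraction.

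Direct comparisons of IPFc with the other treatments share the IPFc libraries. In epithelial libraries 8 of 41 genes (19.5%) differed between IPFc and EC (3 higher, 5 lower), where 4.17% of all genes did. Between IPFc and TGF-β 22 (53.7%) differed (9 higher, 13 lower), where 37.2% of all genes did. Fibroblast libraries had 8 of 46 against EC (17.4%, 3 higher and 5 lower) beside 10.4% of all genes. Against TGF-β they had 14 (30.4%, 12 higher and 2 lower) beside 17.4% of all genes. Against EC, epithelial IPFc libraries had more Il24, Il1rl1 at 1.48 ± 0.21 (adjusted p = 8.76e-05) and Il17re at 0.57 ± 0.12 (adjusted p = 0.00433), and less Il13ra2, Il1rn, Il18rap at -0.81 ± 0.11 (adjusted p = 3.25e-05), Il33 at -0.59 ± 0.13 (adjusted p = 0.00912) and Il1a, an IL-1 receptor ligand, which had 7, 7, 2 and 4 reads in EC and 0 in all 4 IPFc libraries (edgeR adjusted p = 0.0398, lost without each mouse in turn). After subtraction Il1rl1 and Il1a lost that call. In fibroblast libraries Il1rl1 was the gene with the smallest p-value between IPFc and EC and the 1 whose call was left after subtraction. The fibroblast calls between IPFc and EC fell to 3, 4 and 2 without mice 2, 3 and 4, or 5 without the EC library of mouse 4, and those between IPFc and TGF-β fell to 2 after subtraction. Without mouse 1, 5 genes differed between IPFc and EC in epithelial libraries.

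Tests of the response in 1 fraction against the other called 6 of 46 genes for EC (13%, beside 4.59% of all genes). They called 1 for IPFc (2.17%, beside 0.229%) and 15 for TGF-β (32.6%, beside 27.5%). The TGF-β share was near that of all genes. For EC, the epithelial rise of Il13ra2 exceeded the fibroblast rise by 2.36 ± 0.41 (adjusted p = 0.00136) and Il1rl1 differed by 1.28 ± 0.27 (adjusted p = 0.00659). Il33 did not pass this test for EC, at -0.69 ± 0.25 (adjusted p = 0.118). For IPFc the gene was Il1rl1, at 1.20 ± 0.25 (adjusted p = 0.034). Under TGF-β, where the median difference over all genes was 0.21, the smallest p-values were those of Il1rl1, Il18r1 and Il33, at 3.12 ± 0.26 (adjusted p = 1.51e-09), 3.90 ± 0.34 (adjusted p = 2.98e-09) and 3.05 ± 0.30 (adjusted p = 1.65e-08). The shares of the other fraction move in opposite directions in the 2 fractions under TGF-β, and with them subtracted 2, 0 and 9 genes were called; without single mice the counts were as low as 1 for EC (without mouse 2, and 2 without mouse 3 or 4), 0 for IPFc (without mouse 2, 3 or 4) and 7 for TGF-β (without mouse 3).

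Genes around the receptors were read from 3 lists, whose counts stand against the shares of all genes called. In epithelial libraries those shares were 1.96% higher and 2.44% lower for EC, 2.57% and 1.53% for IPFc and 21% and 20.1% for TGF-β. In fibroblast libraries they were 4.28% and 2.84% for EC, 0.305% and 0.144% for IPFc and 6.39% and 12.8% for TGF-β. Of 23 genes of IL-1 and IL-17 receptor signalling (22 tested in epithelial libraries), 3 rose with EC in the epithelium, led by Nfkbiz (0.80 ± 0.15, adjusted p = 0.00262) and Nfkb1 (0.43 ± 0.08, adjusted p = 0.00201), both of the NF-κB family, none was called for IPFc, and TGF-β raised 3 of 22 beside 21% of all genes, led by Tnfaip3 (1.42 ± 0.26, adjusted p = 0.000134), an NF-κB inhibitor, and Nfkbiz (0.59 ± 0.17), and lowered 6 of 22 beside 20.1%, led by Gsdmd (-1.89 ± 0.14, adjusted p = 1.27e-09), the pore protein of pyroptosis, and Sigirr (-0.83 ± 0.14). In fibroblast libraries 1 gene rose with EC (Gsdmd, 1.74 ± 0.25) and 1 fell (Tnfaip3, -1.16 ± 0.30), none was called for IPFc, and TGF-β raised 2 (Irak2, 0.83 ± 0.15, and Map3k7, 0.43 ± 0.12) and lowered 9 of 23 beside 12.8% of all genes, led by Gsdmd (-4.77 ± 0.36) and Pycard (-2.87 ± 0.88).

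Of 24 JAK-STAT genes, 23 of them tested, IPFc raised 2 in the epithelium, Cish (1.02 ± 0.15, adjusted p = 0.000259) and Socs2 (0.49 ± 0.09, adjusted p = 0.0034), both feedback inhibitors of cytokine receptors. EC lowered 1, Cish (-0.56 ± 0.16, adjusted p = 0.0483). TGF-β raised 9 of 23 beside 21% of all genes, led by Cish (1.69 ± 0.16) and Jak2 (0.80 ± 0.11), and lowered 1 beside 20.1%, Socs3 (-0.75 ± 0.13). In fibroblast libraries EC lowered 1 (Socs5, -0.65 ± 0.13), IPFc none, and TGF-β raised 1 (Ptpn11, 0.42 ± 0.14) and lowered 8 of 23 beside 12.8% of all genes, led by Socs3 (-1.36 ± 0.14) and Ptpn6 (-0.84 ± 0.19). The medians over this list under TGF-β were 0.17 in epithelial and -0.32 in fibroblast libraries, beside 0.03 and -0.02 over all genes.

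The third list holds 17 cytokines and receptors of the gp130 and common beta chain groups with the TSLP receptor, 15 tested in epithelial and 13 in fibroblast libraries. EC raised 4 of 15 in the epithelium beside 1.96% of all genes, led by Csf3 (5.34 ± 0.45, adjusted p = 9.94e-08) and Csf2 (1.36 ± 0.38), the granulocyte and granulocyte-macrophage growth factors. IPFc raised Csf2rb alone, the common beta chain, in the epithelial (2.14 ± 0.31) and in the fibroblast fraction (1.32 ± 0.16, adjusted p = 0.000768). TGF-β raised 6 of 15 in the epithelium beside 21% of all genes, among them Csf2rb (1.63 ± 0.35), and lowered Lifr (-1.46 ± 0.13) and Cntf (-1.42 ± 0.55). In fibroblast libraries EC raised Csf3 (3.40 ± 0.63), and TGF-β lowered 3 of 13 beside 12.8% of all genes, led by Csf2ra (-2.40 ± 0.50) and Lifr (-2.24 ± 0.17). The part of the other fraction's RNA in these list values was not tested gene by gene.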

How the data were processed

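Total RNA of the Epcam+ and Epcam- fractions of 72 hour organoid cultures was sequenced in bulk. Per the labels, reads were trimmed with Trimmomatic 0.30, and the authors deposited whole-number counts per gene, 1 file per library. The labels name the build GRCm39 and the study's methods an earlier one, and the aligner and counter are not given in the sources used here. Here, CPM values use TMM-scaled library sizes. Each fraction was fitted with edgeR 4.0.16 in R 4.3.3 (quasi-likelihood, all 4 treatments in 1 fit, mouse as block, mean count of at least 1), and differences between fractions in a fit of all 30 libraries. The pairing comes from the mouse in the labels: deviations from group means correlated at a mean r of 0.264 (lowest 0.0166) between same-mouse epithelial libraries and 0.283 (lowest -0.193) between fibroblast ones. P-values measure the spread between cultures of 4 mice and 1 fibroblast line. Libraries of a group differed beyond sampling noise (chi-square per degree of freedom 5.76 to 83.2). The highest values were those of fibroblast EC mouse 1 against mice 2, 3 and 4, at 83.1, 83.2 and 78.8. Other pairs of that group gave 11.1 to 31.0. This library enters the shared fit of the fibroblast fraction.

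The share of the other fraction is the median, over its markers at 50 CPM or more there, unscaled, of each marker's level relative to that fraction of the same culture (the group mean where that library was missing). Subtraction removes this share of the other library's reads gene by gene. Since that library is itself mixed, the subtraction takes away some of the gene's own reads.

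Genes named in full are 15 fixed by name and every member called with a log2 fold change beyond 1 in size against vehicle, 29 in all, 23 of them with a promoter in the table. One gene of the lists is not reported here. Members and lists were chosen with earlier results of these data known. Exon lengths come from GENCODE M39, for 83 genes. Alternatives were other filters, DESeq2 1.42.0 and its size factors, no block, fits of 2 groups alone, each mouse left out, the subtraction and, added after the data were seen, fibroblast EC libraries of mice 1 and 4 left out. The scripts were tested on simulated data.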

Additional observations from a re-analysis of the deposited data

Results flagged for a closer look

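A single library stood apart from the others of its group of 4 in 19 of 167 sets of values for the genes described in full, judged by its gap to the nearest library over the range of the group. For continuous values chance gives about 1 in 20, a rate that does not apply to sets of few reads, where a single library above 0 is always picked out. Most were low transcripts. The only library above 0 was fibroblast IPFc mouse 2 for Il7r (0.0719 CPM), epithelial vehicle mouse 2 (0.0809 CPM), epithelial EC mouse 1 (0.0709 CPM) and epithelial IPFc mouse 2 (0.0592 CPM) for Tslp, fibroblast IPFc mouse 4 (0.154 CPM) and fibroblast TGF-β mouse 4 (0.182 CPM) for Il1r2, fibroblast TGF-β mouse 4 for Il22ra1 (0.0607 CPM) and epithelial vehicle mouse 2 for Il2rb (0.0809 CPM).

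In the fibroblast fraction the high libraries were EC mouse 1 for Il13ra2 (16.0 CPM, others 7.46 to 7.9) and Tslp (0.79 CPM, others 0.442 to 0.492), TGF-β mouse 2 for Il18rap (82.8 CPM, others 75.7 to 76.7), TGF-β mouse 4 for Il2rg (0.364 CPM), IPFc mouse 1 for Il15 (1.48 CPM) and IPFc mouse 3 for Il2rb (1.14 CPM). Il15 was low in TGF-β mouse 4 (0.243 CPM, others 1.06 to 1.2). Fibroblast EC mouse 1 is the library with the fewest reads. In the epithelial fraction EC mouse 3 was high for Il24 (5.86 CPM, others 3.1 to 3.49) and Il22ra1 (4.6 CPM, others 1.26 to 1.7), EC mouse 1 for Il23a (0.567 CPM) and vehicle mouse 1 for Il17rd (2.8 CPM, others 1.54 to 1.7).

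Responses also differed between the fractions, given as the epithelial minus the fibroblast log2 fold change. For EC the differences were 2.36 for Il13ra2, 1.28 for Il1rl1, 0.91 for Il18rap, -0.72 for Il34, -1.06 for Il17re and -1.79 for Il24 (edgeR adjusted p from 0.00136 to 0.0379). For IPFc the difference was 1.20 for Il1rl1 (edgeR adjusted p = 0.034). For TGF-β the differences were 4.30 for Il24, 3.89 for Il18r1, 3.84 for Il23a, 3.36 for Il17re, 3.12 for Il1rl1, 3.05 for Il33, 3.00 for Il15, 2.96 for Il13ra2, 2.18 for Il17rd, 1.34 for Il13ra1, 0.70 for Il6ra, 0.63 for Il6st and -0.64 for Il34 (edgeR adjusted p from 1.51e-09 to 0.0472). Il11ra1 and Il17rc, which are not among the genes described in full, were also called, at 0.95 and -0.61. How much RNA each library held from the opposite fraction differed between treatments, as given with the results above.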

How the results depend on the processing

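Counts are of genes called, and the cause of each change was not tested except where stated. With no replicate block, epithelial EC and IPFc calls both came to 3, fibroblast EC to 2, fibroblast IPFc against EC to 2, and the differences between fractions to 0 for EC and 0 for IPFc; no other count moved by over 1.5 times. With the share of the other fraction subtracted, which lowers the counts tested, epithelial IPFc calls came to 2, fibroblast EC to 0, fibroblast TGF-β to 3, fibroblast IPFc against EC to 1 and against TGF-β to 2, and the differences to 2 for EC, 0 for IPFc and 9 for TGF-β. Under it the fibroblast EC change took the opposite sign for Il33 (-3.68) and Il13ra2 (-0.23), neither of them called. Subtracted counts below 0 were set to 0, and Il33 then stood at 0, 14.2, 0 and 0 CPM in the fibroblast EC libraries. Without a filter on low counts 6 genes were called for fibroblast IPFc. DESeq2 called 8 for fibroblast EC and 4 for fibroblast IPFc. Fits of 2 groups alone gave 5 for fibroblast IPFc and 3 for fibroblast IPFc against EC. Leaving out a mouse or 1 fibroblast EC library gave 4 to 6 calls for epithelial IPFc, 13 to 22 for epithelial TGF-β, 2 to 6 for fibroblast EC, 0 to 6 for fibroblast IPFc, 5 to 7 for epithelial IPFc against EC, 2 to 9 for fibroblast IPFc against EC, 1 to 6, 0 to 1 and 7 to 18 for the differences under EC, IPFc and TGF-β. Of single values, 50 were called and over all alternatives stayed so 483 times, lost the call 91 times and reversed 2 times; 109 uncalled values became called 44 times. Transcripts under 1 CPM rest on few reads, so that a change of them was often not detectable at this depth.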
